A study of Mus musculus with 19 samples.

Results

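A set of 10 genes of the TGF-beta and activin branch were followed in 4 embryonic tissues: the ligand genes Tgfb1, Tgfb2, Tgfb3, Inhba and Inha, the antagonist Fst, the latency gene Ltbp1, the receptor genes Acvr1b and Acvr2b, and the co-receptor gene Eng. They were matched by gene symbol in the annotation of the array, as a set that was put together with earlier results of these data known, and they are 10 of the 17360 genes with a tested probe set. They are read by 22 of the 45037 probe sets other than controls, and all 22 had a signal over 20 on at least 1 array. The study compared the epithelium and the mesenchyme of the urogenital sinus, the rudiment from which the prostate grows, with the layers of the skin as a second pair of tissues. RNA was hybridised to 19 MOE430 2.0 arrays: 6 of urogenital sinus epithelium (UGE), 5 of urogenital sinus mesenchyme (UGM), 4 of back skin epidermis and 4 of dermis. All samples came from C57BL/6 embryos at embryonic day 16, and each was a pool of tissue from several embryos. The same embryos supplied skin and urogenital sinus, pools can therefore share embryos, and the p-values below measure the spread between pools. Trypsin freed UGE from UGM, whereas back skin was left in cold dispase overnight before its layers were pulled apart. The site of a tissue and the way it was separated cannot be told apart in a comparison between sites.

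TGF-beta and activin ligands are secreted dimers that bring type I and type II receptor kinases together, and the active complex phosphorylates Smad2 and Smad3, which enter the nucleus with Smad4. TGF-beta is held inactive in the matrix by latent TGF-beta binding proteins until it is released, activin is neutralised by follistatin, and inhibin, which carries the alpha subunit, competes with activin for its type II receptors. In developing glands and skin this pathway is known for restraining epithelial growth and for shaping the surrounding matrix.

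Promoters of the ligand genes Tgfb2 and Inhba are shown because both genes were highest in UGM and both windows hold the core promoter letters TATAAA. They are the 250 bases before a RefSeq transcript start in the GRCm38.p6 build, 5′ to 3′ on the strand of the gene, and the capitals mark TATAAA. The Tgfb2 window lies at chr1:186705990-186706239 on the minus strand and the Inhba window at chr13:16011601-16011850 on the plus strand. Each window belongs to 1 listed start. The annotated gene spans reach further upstream, to 186709697 for Tgfb2 and 16004256 for Inhba.
Tgfb2: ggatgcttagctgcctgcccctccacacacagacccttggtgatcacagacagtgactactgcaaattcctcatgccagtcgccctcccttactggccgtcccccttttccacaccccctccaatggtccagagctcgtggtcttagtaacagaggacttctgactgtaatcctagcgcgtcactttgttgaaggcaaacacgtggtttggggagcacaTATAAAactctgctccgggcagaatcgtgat
Inhba: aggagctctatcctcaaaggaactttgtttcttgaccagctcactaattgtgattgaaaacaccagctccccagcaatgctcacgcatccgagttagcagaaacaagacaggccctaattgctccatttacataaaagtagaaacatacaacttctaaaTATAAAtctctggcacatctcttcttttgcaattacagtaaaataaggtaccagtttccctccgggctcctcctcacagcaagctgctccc
The match lies 31 to 26 bases before the start in Tgfb2 and 91 to 86 bases before it in Inhba. TATAAA, searched on both strands, was present in 12.37% of 32851 promoter windows of the same length. Windows were at hand for 8 of the 10 genes, and the other 6 genes with a window had no match. GC content was 53.6% in the Tgfb2 window and 43.2% in the Inhba window. Of the other letters searched, the palindromic Smad site GTCTAGAC, in 0.17% of all windows, was in no window of these genes. The shorter CAGACA, in 17.13% of all windows, was in those of Tgfb2 and Ltbp1, and the cAMP response element TGACGTCA, in 1.55%, was in that of Ltbp1. GGGCGG, in 32.74%, was in those of Tgfb1, Acvr1b and Acvr2b. A match is a run of letters and not a shown binding site.

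The values are intensities, which the authors normalized between arrays, and are given here on the log2 scale with no further normalization. Array medians lay between 76.2 and 81.6, and pairs of arrays within a tissue correlated at 0.954 to 0.997. The labels were checked against marker genes. All 12 epithelial markers were higher in UGE than in UGM and 9 of 12 were higher in epidermis than in dermis, while all 9 mesenchymal markers were lower in both epithelia. Dermis kept a high epithelial signal, with an array median over the list of 9.94 to 11.31 against 6.55 to 8.28 in UGM, where replicate 2 was the highest. UGE replicates 2 and 3 stood apart with a mesenchymal list median of 10.50 and 10.60, against 6.28 to 7.92 in the other 4 UGE samples, and epidermis lay at 9.51 to 10.75. Values without these 2 samples are given below beside those genes they moved most. In bulk tissue, fewer cells of a type and less RNA per cell cannot be told apart.

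A gene was called at a Benjamini-Hochberg adjusted p under 0.01 in limma and a change over 2-fold, with p-values adjusted over all 41549 tested probe sets, and each gene was read from its brightest probe set. Of all genes, 6.75% were called higher and 10.0% lower in UGE than in UGM. Counts over the 10 genes describe a set chosen with results in view and are no independent evidence. Of the 10 pathway genes, 3 were higher (Inha, Acvr1b and Acvr2b) and 5 were lower (Tgfb2, Tgfb3, Inhba, Fst and Ltbp1). Between the skin layers 5.84% of genes were called higher and 11.1% lower in epidermis than in dermis. Here 2 of the 10 were higher (Inha and Acvr1b) and 6 lower (Tgfb1, Tgfb2, Tgfb3, Inhba, Eng and Ltbp1). The median log2 difference over the 10 was -1.31 in the urogenital sinus and -1.32 in skin, and over all genes it was 0.02 and 0.01.

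**Figure D1:**
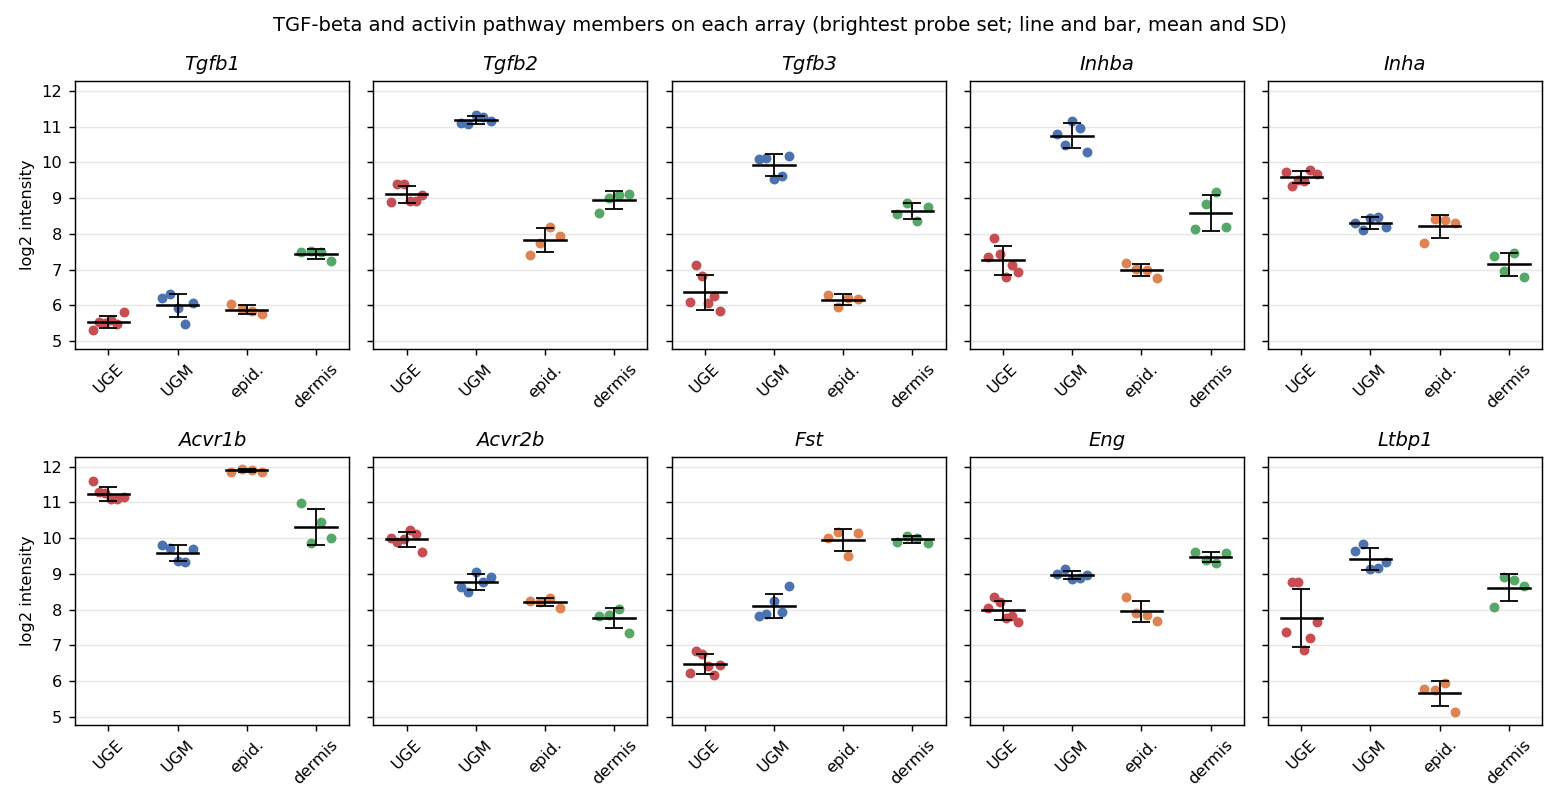
Log2 intensity of each gene on each of the 19 arrays (vertical axis) in UGE, UGM, epidermis and dermis, 1 point per array, with the line at the mean and the bar at 1 SD (n = 6, 5, 4 and 4). Inhba and Tgfb3 are highest in UGM and next in dermis, Inha and Acvr2b are highest in UGE, and Fst is high in both skin layers and lowest in UGE.

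Tgfb2, a ligand needed for the development of many organs, had the highest signal in UGM. Its log2 intensity in UGE was 8.89 at the lowest, 9.01 at the median and 9.40 at the highest, and the 5 UGM samples had 11.10, 11.07, 11.33, 11.28 and 11.16. The skin samples gave 7.42, 7.74, 8.20 and 7.94 in epidermis and 8.59, 9.01, 9.09 and 9.11 in dermis. Every mesenchymal sample lay above every epithelial sample of its own site, whereas UGE and dermis overlapped. UGE was 4.23-fold lower than UGM (log2 difference -2.08 ± 0.12, SE, limma adjusted p = 3.44e-08), and epidermis was 2.18-fold lower than dermis (-1.12 ± 0.18, limma adjusted p = 9.38e-04). The skin call was narrow. It fell under 2-fold without epidermis replicate 1, at -0.99 ± 0.16, and the methods' t-test gave an adjusted p of 0.0109. Against skin, Tgfb2 was higher in both layers of the urogenital sinus, by 1.28 ± 0.15 in UGE against epidermis (limma adjusted p = 1.39e-06) and by 2.24 ± 0.15 in UGM against dermis (limma adjusted p = 1.36e-09).

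Tgfb3, a ligand known for its part in palate fusion, showed the largest compartment difference of the 10 genes in the urogenital sinus. Its log2 intensity in UGE was 5.85 at the lowest, 6.18 at the median and 7.12 at the highest, against 10.10, 10.14, 9.54, 9.63 and 10.19 in UGM. Epidermis had 6.30, 5.95, 6.21 and 6.16 and dermis 8.57, 8.86, 8.36 and 8.77. Both mesenchymes were clear of both epithelia, UGM was clear of dermis, and UGE and epidermis overlapped. UGE replicates 2 and 3 held the highest UGE values, at 7.12 and 6.81. The difference was -3.55 ± 0.23 between UGE and UGM, or 11.7-fold (limma adjusted p = 1.13e-07), and -3.85 ± 0.16 without those 2 samples. In skin it was -2.48 ± 0.13, or 5.58-fold (limma adjusted p = 3.60e-06). UGM exceeded dermis by 1.28 ± 0.22 (limma adjusted p = 1.19e-04), while UGE minus epidermis was 0.21 ± 0.21 and did not pass (limma adjusted p = 0.461). Without UGE replicates 2 and 3 it was -0.09 ± 0.16.

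Inhba encodes the beta A subunit, which pairs with itself as activin A. It followed the same order of tissues as Tgfb3. UGE samples had a log2 intensity of 6.79 at the lowest, 7.23 at the median and 7.90 at the highest, and UGM samples had 10.80, 10.49, 11.17, 10.97 and 10.30. Epidermis gave 7.18, 7.02, 6.98 and 6.77, and dermis gave 8.14, 8.85, 9.16 and 8.19. UGM stood above all other samples, the dermis samples spread over about 1 log2 unit, and UGE and epidermis overlapped. UGE was lower than UGM by 11.3-fold (-3.49 ± 0.21, limma adjusted p = 5.55e-08), and epidermis lower than dermis by 3.03-fold (-1.60 ± 0.22, limma adjusted p = 3.90e-04). UGM was 4.47-fold higher than dermis (2.16 ± 0.24, limma adjusted p = 6.60e-07). The highest UGE sample was again replicate 2, at 7.90, and UGE minus UGM was -3.70 ± 0.18 without UGE replicates 2 and 3.

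Inha, the inhibin alpha subunit, ran the other way and was highest in UGE. The 6 UGE samples had a log2 intensity of 9.34 at the lowest, 9.59 at the median and 9.78 at the highest. The UGM samples had 8.32, 8.09, 8.45, 8.47 and 8.20. Epidermis had 7.74, 8.41, 8.39 and 8.30 and dermis 7.38, 6.96, 7.46 and 6.80. UGE was clear of every other tissue, dermis was below every other tissue, and UGM and epidermis overlapped. The epithelium was higher at both sites, by 1.28 ± 0.10 in UGE (limma adjusted p = 1.01e-06) and by 1.06 ± 0.20 in epidermis (limma adjusted p = 0.00208). In skin this lay just over 2-fold, at 2.08-fold. It fell to 0.99 without epidermis replicate 2, 0.997 without epidermis replicate 3, 0.996 without dermis replicate 2, and 0.94 without dermis replicate 4, and the methods' t-test gave an adjusted p of 0.0178. Both layers of the urogenital sinus were above their skin counterparts, by 1.38 ± 0.15 for UGE against epidermis (limma adjusted p = 5.93e-07) and 1.15 ± 0.16 for UGM against dermis (limma adjusted p = 9.72e-06).

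Tgfb1, the best known ligand of the family, stood out only in dermis. Its log2 intensity in UGE was 5.31 at the lowest, 5.51 at the median and 5.80 at the highest, and in UGM 6.19, 6.32, 5.91, 5.48 and 6.07. In epidermis it was 6.04, 5.88, 5.83 and 5.76, and in dermis 7.50, 7.52, 7.50 and 7.23. All 4 dermis samples were above all others, and the other tissues overlapped with their neighbours in order of level. Epidermis was 2.95-fold lower than dermis (-1.56 ± 0.11, limma adjusted p = 8.31e-06) and UGM 2.72-fold lower than dermis (-1.44 ± 0.14, limma adjusted p = 1.32e-07). UGE minus UGM was -0.46 ± 0.14, which was not called (limma adjusted p = 0.0251). The signal outside dermis was low, below the array medians of 6.25 to 6.35, except in UGM replicate 2 at 6.32, within that range.

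Fst encodes follistatin, which binds activin and keeps it from its receptors. It separated the sites and not the skin layers. The log2 intensity in UGE was 6.17 at the lowest, 6.43 at the median and 6.85 at the highest, and in UGM it was 7.82, 7.87, 8.23, 7.94 and 8.65. Epidermis had 10.01, 10.18, 9.50 and 10.13 and dermis 9.90, 10.07, 10.01 and 9.87. The skin layers overlapped, all skin samples lay above all UGM samples, and all UGM samples above all UGE samples. UGE was 3.09-fold lower than UGM (-1.63 ± 0.17, limma adjusted p = 9.98e-06). Replicates 2 and 3 had the highest UGE values here too, and without them the difference was -1.79 ± 0.16. Epidermis minus dermis was -0.01 ± 0.15 and was not called (limma adjusted p = 0.979). UGE was 11.2-fold lower than epidermis (-3.48 ± 0.17, limma adjusted p = 1.08e-11) and UGM 3.63-fold lower than dermis (-1.86 ± 0.18, limma adjusted p = 1.21e-07). UGM, the tissue with the highest Inhba signal, had less Fst signal than either skin layer.

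Ltbp1, which tethers latent TGF-beta to the matrix, varied most between UGE samples. Its log2 intensity there was 8.78 and 8.77 in replicates 2 and 3 and 6.88 to 7.64 in the other 4. UGM had 9.65, 9.84, 9.13, 9.18 and 9.34. Epidermis had 5.78, 5.74, 5.95 and 5.12 and dermis 8.06, 8.91, 8.82 and 8.65. The 2 high UGE samples reached into the dermis range and are those with the high mesenchymal markers. Epidermis lay below all other samples and UGM above all of them. UGE minus UGM was -1.65 ± 0.34 (limma adjusted p = 0.00226) with all samples and -2.15 ± 0.18 without UGE replicates 2 and 3. Epidermis was 7.79-fold below dermis (-2.96 ± 0.22, limma adjusted p = 1.12e-05). UGE exceeded epidermis by 2.13 ± 0.33 (limma adjusted p = 3.60e-05), and by 1.63 ± 0.22 without the 2 samples. The part of mesenchymal RNA in these UGE values was not tested beyond that comparison.

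Acvr1b, the type I receptor of activin also called ALK4, was higher in both epithelia. Log2 intensity in UGE was 11.09 at the lowest, 11.21 at the median and 11.61 at the highest, and in UGM it was 9.82, 9.74, 9.37, 9.32 and 9.70. Epidermis had 11.87, 11.94, 11.92 and 11.87 and dermis 10.99, 9.86, 10.44 and 10.01. No 2 tissues overlapped, with epidermis first and UGM last. UGE exceeded UGM by 3.16-fold (1.66 ± 0.13, limma adjusted p = 5.12e-07) and epidermis exceeded dermis by 2.98-fold (1.58 ± 0.22, limma adjusted p = 3.48e-04). The gene was lower in the urogenital sinus in both layers, but by less than 2-fold, at -0.65 ± 0.17 for UGE against epidermis (limma adjusted p = 0.00574) and -0.74 ± 0.18 for UGM against dermis (limma adjusted p = 0.00322). Dermis replicate 1, which had the highest epithelial list median of the dermis samples, also had the highest Acvr1b value, at 10.99. Without it and UGM replicate 2, epidermis minus dermis was 1.80 ± 0.15.

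Acvr2b, a type II receptor that binds activin, was highest in UGE. Its log2 intensity in UGE was 9.62 at the lowest, 9.99 at the median and 10.23 at the highest. UGM had 8.64, 8.48, 9.04, 8.76 and 8.90. Epidermis had 8.24, 8.22, 8.33 and 8.04 and dermis 7.82, 7.85, 8.003 and 7.34. The 4 tissues did not overlap, although the lowest epidermis sample, at 8.04, lay only just above the highest dermis sample. UGE was 2.31-fold above UGM (1.21 ± 0.13, limma adjusted p = 9.10e-06) and 3.4-fold above epidermis (1.77 ± 0.14, limma adjusted p = 5.78e-09). Epidermis minus dermis was 0.45 ± 0.15 and was not called (limma adjusted p = 0.0363). UGM was 2.02-fold above dermis (1.01 ± 0.14, limma adjusted p = 1.57e-05), a call at the edge of the fold threshold. It was 0.94 without UGM replicate 3, 0.98 without UGM replicate 5, 0.87 without dermis replicate 4 and 0.98 with the replicate number as a block.

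Eng encodes endoglin, a co-receptor of TGF-beta best known on blood vessel endothelium. Log2 intensity in UGE was 7.65 at the lowest, 7.93 at the median and 8.34 at the highest, and in UGM it was 8.999, 9.13, 8.86, 8.89 and 8.98. Epidermis had 8.36, 7.91, 7.84 and 7.69 and dermis 9.60, 9.40, 9.30 and 9.59. Both mesenchymes lay above both epithelia, dermis lay above UGM, and the epithelia overlapped. Epidermis was 2.87-fold below dermis (-1.52 ± 0.15, limma adjusted p = 5.32e-05). UGE was just under 2-fold below UGM (-0.997 ± 0.13, limma adjusted p = 5.12e-05) and so was not called. It passed 2-fold without UGE replicate 1, 2 or 3 (-1.01, -1.07 and -1.05), without UGM replicate 3 or 4 (-1.02 and -1.02), and without UGE replicates 2 and 3 together (-1.15 ± 0.10).

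**Figure D2:**
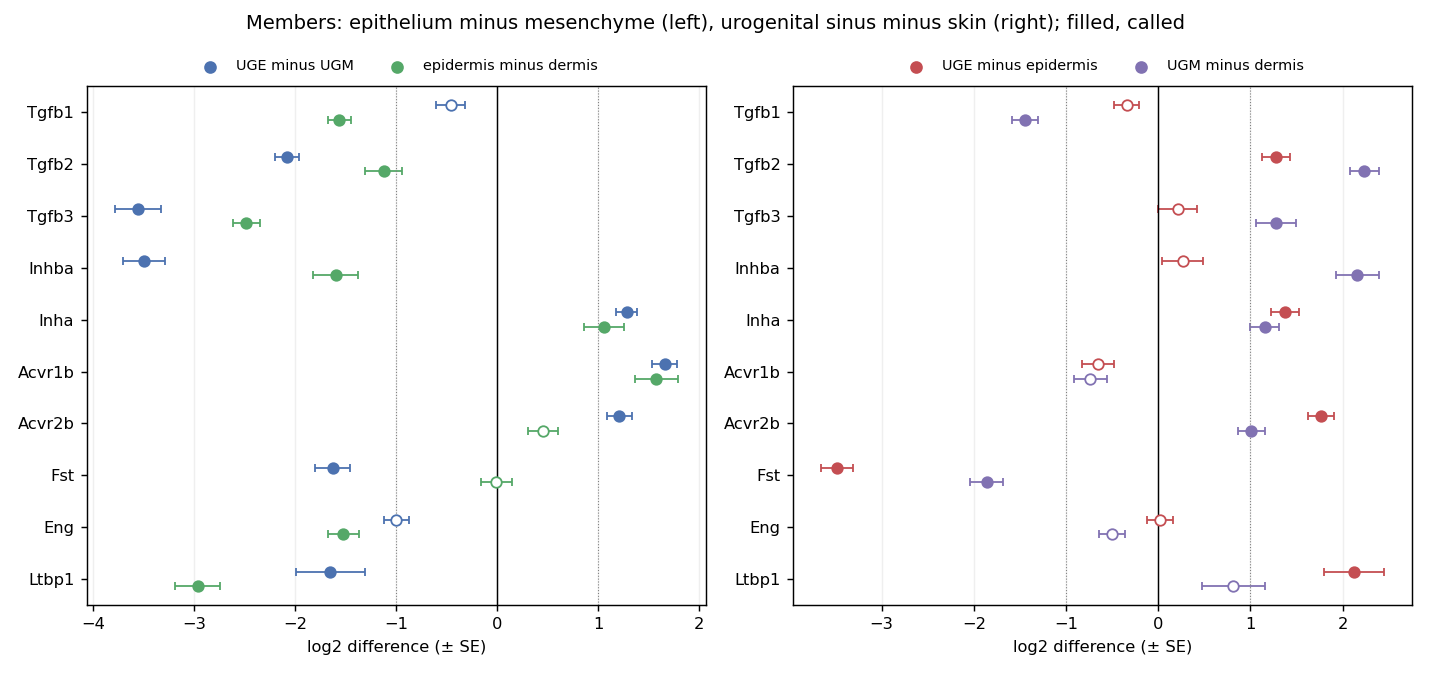
Log2 difference of each gene with its SE (horizontal axis), epithelium minus mesenchyme within each site on the left and urogenital sinus minus skin within each layer on the right, where filled points are called (adjusted p under 0.01 and over 2-fold) and dotted lines mark 2-fold. Tgfb3, Inhba and Ltbp1 lie left of -1 at both sites, Acvr1b and Inha lie right of 1 at both, and Fst is near 0 in skin and at -1.63 in the urogenital sinus.

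Between sites, 8.28% of all genes were called higher and 6.12% lower in UGE than in epidermis, and 4 of the 10 were higher (Tgfb2, Inha, Acvr2b and Ltbp1) and 1 lower (Fst). Of all genes, 6.77% were called higher and 7.00% lower in UGM than in dermis, and 5 of the 10 were higher (Tgfb2, Tgfb3, Inhba, Inha and Acvr2b) and 2 lower (Tgfb1 and Fst). The medians over the 10 genes were 0.24 for the epithelia and 0.91 for the mesenchymes, against -0.04 and -0.07 over all genes. These comparisons use the same samples as those within a site.

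Whether the compartment difference itself differed between the sites was tested as an interaction, UGE minus UGM less epidermis minus dermis. Of all genes, 7.53% were called with a positive and 5.41% with a negative interaction. Of the 10, Tgfb1 was positive at 1.10 ± 0.19 (limma adjusted p = 3.07e-04), since its mesenchymal excess was smaller in the urogenital sinus. Inhba was negative at -1.89 ± 0.33 (limma adjusted p = 2.58e-04), since its mesenchymal excess was larger in the urogenital sinus. Fst was negative at -1.62 ± 0.25 (limma adjusted p = 7.34e-05). It was lower in UGE than in UGM, with -0.01 ± 0.15 between the skin layers. Without UGM replicate 4 the Tgfb1 value was 0.97 ± 0.16, under 2-fold, and the call was also lost with 50 added before log2, at 0.79 ± 0.11, and with the mean of its probe sets, at 0.56 ± 0.13. That of Inhba was lost with the mean of its probe sets, at -0.94 ± 0.17. Tgfb2 at -0.96 ± 0.21 (limma adjusted p = 0.00298) and Acvr2b at 0.76 ± 0.20 (limma adjusted p = 0.00957) passed the p threshold but not the fold. Tgfb3 had -1.07 ± 0.30 (limma adjusted p = 0.0157). Without UGE replicates 2 and 3 both TGF-beta genes were called, Tgfb2 at -1.10 ± 0.20 and Tgfb3 at -1.37 ± 0.21, and so they were without either sample alone, at -1.01 and -1.22 without replicate 2. Tgfb2 was also called without epidermis replicate 1 (-1.09), dermis replicate 3 (-1.004) or dermis replicate 4 (-1.01). The interaction of Ltbp1, 1.31 ± 0.47 (limma adjusted p = 0.0594), was not called and fell to 0.81 ± 0.30 without the 2 UGE samples. Eng, Inha and Acvr1b were not called either. Dermis kept epithelial marker signal, and epidermis kept mesenchymal marker signal. Of the 12 epithelial markers 11 were called with a positive interaction, and the list median was 3.94. None of the 9 mesenchymal markers was called, and the list median was -1.81. The part of RNA from the other layer in the interactions of the 10 genes was not tested.

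Of the 10 genes 8 have more than 1 probe set, and these differed in how well they tracked each other. The 4 probe sets of Tgfb2 correlated with the brightest at 0.951 to 0.983 over the 19 arrays, and all 4 were called lower in UGE than in UGM. In skin, however, only the 2 brightest were called, and the others had -0.86 and -0.20. The second Fst probe set gave -3.35 ± 0.18 for UGE minus UGM, a larger difference than the first, and -0.02 ± 0.15 in skin. The second Eng probe set was called at both sites, with -1.65 ± 0.32 (limma adjusted p = 0.00141) and -2.47 ± 0.18. The dimmer probe sets of Tgfb1, Inhba, Acvr1b and Acvr2b were called in neither within-site comparison. For Acvr2b, 1 of these lay at 6.27 to 7.31, with array medians of 6.25 to 6.35, and gave 0.29 ± 0.17 for UGE minus UGM. Correlations with the brightest Acvr2b probe set were 0.182 for it and 0.018 for the third. The dimmer Acvr1b probe set gave 0.06 ± 0.07 for UGE minus UGM and 0.14 ± 0.10 in skin. Its correlation with the brightest was 0.535, and that of the dimmer Tgfb1 probe set was 0.318. The calls of Acvr2b, and likewise those of Tgfb1, Inhba and Acvr1b, rest on the brightest probe set alone. Tgfb3 and Inha have only 1 probe set each. The second Inhba probe set lay at 4.51 to 4.83 on every array, around the arrays' lower quartiles of 4.70 to 4.92, and its correlation with the first was -0.185. Of the 2 dimmer Ltbp1 probe sets, 1 was over the signal minimum of 20 on only 6 of 19 arrays. It was called lower in UGE than in UGM (-1.36 ± 0.23, limma adjusted p = 4.78e-04) but not in skin (-0.40 ± 0.14). Its correlation with the brightest was 0.730. The other was over the signal minimum on all 19 and was not called, with -0.15 ± 0.13 for UGE minus UGM and 0.05 ± 0.16 in skin. Its correlation with the brightest was 0.369.

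**Figure D3:**
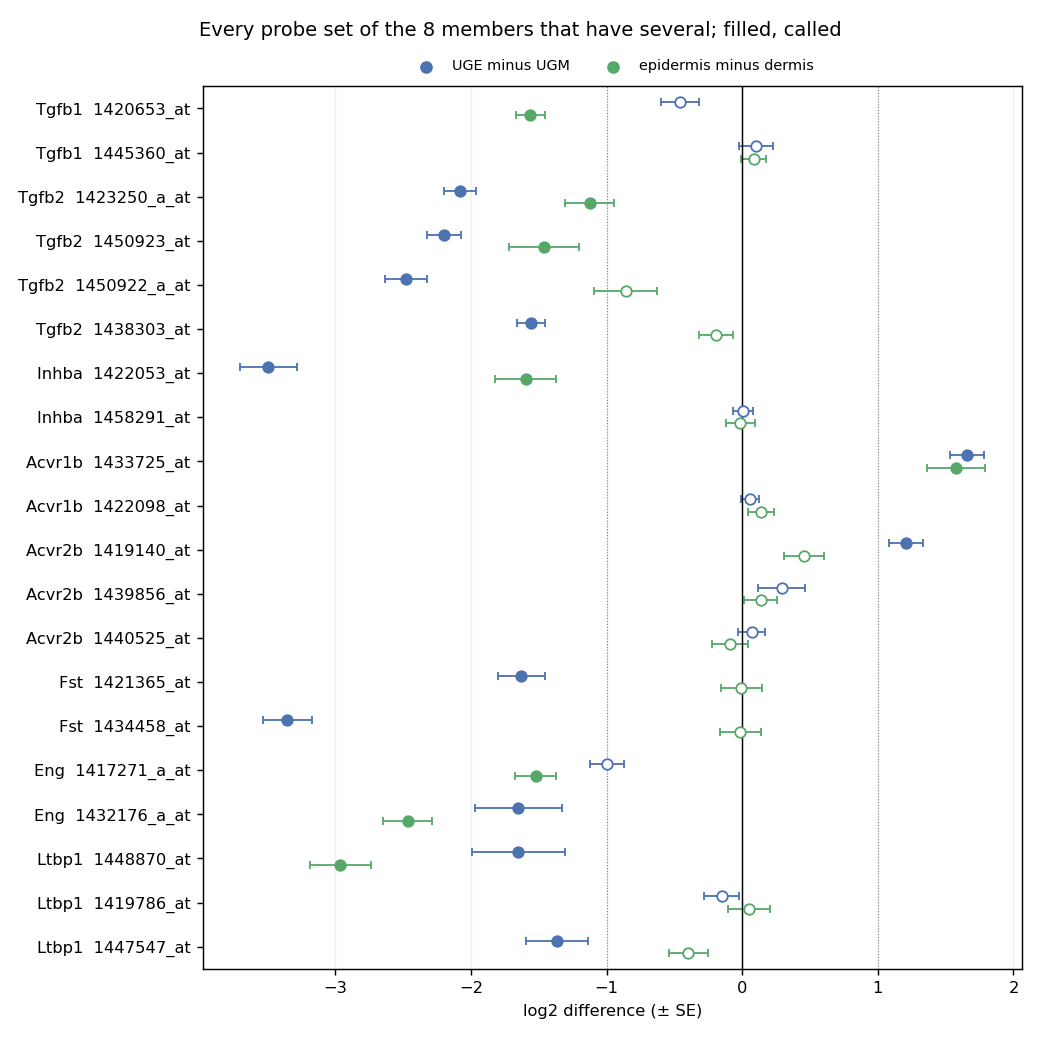
Log2 difference with its SE (horizontal axis) of epithelium minus mesenchyme for every probe set of the 8 genes that have several, brightest first within a gene, in the urogenital sinus and in skin, with called probe sets filled. All 4 Tgfb2 probe sets lie left of -1 in the urogenital sinus, while the dimmer probe sets of Tgfb1, Inhba, Acvr1b and Acvr2b lie near 0.

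The rest of the pathway was counted in lists of named genes, with counts read against the percentages of all genes given above. Where a mean lay at or below the arrays' lower quartiles of 4.70 to 4.92, as for Acvrl1 in UGE, Itgb6 in UGM and Ltbp2 and Ldlrad4 in epidermis, whether the signal was above background is not known, and the size of the difference is uncertain. Of 8 other ligands of this branch, none was called in the urogenital sinus, and the left-right determinant Lefty1 alone was called in skin, lower in epidermis (-1.10 ± 0.17, limma adjusted p = 6.95e-04). The beta B subunit Inhbb, the other partner for activin, was at 0.04 between UGE and UGM and -0.38 in skin and was not called. The median over the list was -0.03 and -0.07.

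Of 9 other receptors and co-receptors, 3 were lower in UGE than in UGM and none higher. They were the endothelial type I receptor Acvrl1 (-1.35 ± 0.22), the membrane-bound co-receptor Cd109 (-1.21 ± 0.11) and the type II TGF-beta receptor Tgfbr2 (-1.13 ± 0.13, limma adjusted p = 2.73e-05). In skin 4 were lower in epidermis, led by Tgfbr2 (-2.34 ± 0.15, limma adjusted p = 6.16e-06), Acvrl1 (-2.04 ± 0.12) and the co-receptor betaglycan, Tgfbr3 (-1.49 ± 0.14). The remaining one, the type I receptor Acvr1 at -1.18 ± 0.12, is named after its value was seen. Cd109 went the other way and was higher in epidermis (1.25 ± 0.17, limma adjusted p = 3.38e-04). The list median was -0.86 in the urogenital sinus, or -0.35 without UGE replicates 2 and 3 (for the lists, an alternative chosen after seeing the data), and -0.78 in skin. The type I TGF-beta receptor Tgfbr1 was at -0.86 ± 0.35 and -0.78 ± 0.21, and the type II activin receptor Acvr2a at -0.90 ± 0.49 and 0.67 ± 0.21, none of them called (limma adjusted p from 0.014 to 0.181). Without UGE replicates 2 and 3, UGE minus UGM was -0.35 ± 0.18 for Tgfbr1 and -0.16 ± 0.21 for Acvr2a, again not called.

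Among 9 latency and activation genes, Itgb6, a chain of an epithelial integrin that releases TGF-beta from its latent complex, was higher in UGE (1.91 ± 0.23, limma adjusted p = 3.26e-05), with a mean log2 intensity of 6.43 in UGE and 4.52 in UGM. Emilin1, a matrix protein that limits TGF-beta processing, was lower in UGE (-4.85 ± 0.72) and in epidermis (-3.30 ± 0.35). In skin Ltbp2 (-2.98 ± 0.18) and Ltbp3 (-1.06 ± 0.14), relatives of Ltbp1, were also lower in epidermis. The list median was -0.46 in the urogenital sinus, or -0.21 without UGE replicates 2 and 3, and -0.97 in skin. Without the same 2 samples, Emilin1 was at -5.98 ± 0.25 between UGE and UGM, and Ltbp3 was called too, at -1.18 ± 0.13. Of 6 inhibitors, the matrix proteoglycan decorin, Dcn, was lower in both epithelia (-2.30 ± 0.21 and -1.37 ± 0.12), and the pseudoreceptor Bambi was higher in epidermis (1.69 ± 0.23), with medians of -0.04 and 0.06.

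Of 13 Smad proteins and regulators, the corepressor Tgif1 alone was higher in UGE than in UGM (1.30 ± 0.13, limma adjusted p = 6.30e-06), Ldlrad4 alone was lower in epidermis than in dermis (-1.56 ± 0.20, limma adjusted p = 2.29e-04), and the medians were 0.06 and -0.20. Ldlrad4, which binds Smads at the membrane, was also called lower in UGE than in UGM without UGE replicates 2 and 3, at -1.06 ± 0.18. The mediator Smad4 was at 0.19 and -0.08 and not called. Of all genes, 8.28% were called higher and 6.12% lower in UGE than in epidermis. Between the epithelia 6 of the 13 were called with UGE above epidermis and none the other way, with a median of 0.72. These 6, named after their values were seen, were Tgif1 (2.54 ± 0.15), Ldlrad4 (2.39 ± 0.22), the inhibitory Smads Smad6 (2.10 ± 0.14) and Smad7 (1.72 ± 0.12), the mediator Smad3 (1.63 ± 0.09) and Pmepa1 (1.57 ± 0.16). All 6 were also called without UGE replicates 2 and 3, at 1.42 to 2.42. In UGM against dermis 3 of the 13 were called higher and none lower, with a median of 0.47. The other lists went other ways between the epithelia. In UGE 3 of 6 target genes, 2 of 9 receptors and 2 of 6 inhibitors were called lower and none higher. Of 9 latency genes 2 were higher and none lower, and no other ligand was called.

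All 6 common target genes were called between UGE and UGM, in both directions. The cell cycle inhibitors Cdkn2b (3.24 ± 0.15) and Cdkn1a (2.38 ± 0.22) and the transcription factor Bhlhe40 (2.59 ± 0.18) were higher in UGE. The matrix and cytoskeletal genes Tgfbi (-3.91 ± 0.82), Tgfb1i1 (-3.80 ± 0.28) and Ccn2 (-3.11 ± 0.36) were lower. In skin the same 3 were higher in epidermis (Cdkn2b 2.26, Bhlhe40 2.10 and Cdkn1a 1.35), and Tgfbi (-2.71) and Tgfb1i1 (-2.40) were lower, while Ccn2 was at -0.44 ± 0.22. The medians were -0.37 and 0.45. Without UGE replicates 2 and 3 the 6 genes were called in the same directions between UGE and UGM, the median was -0.73, and Tgfbi was at -5.19 ± 0.28. These genes respond to many signals besides TGF-beta.

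**Figure D4:**
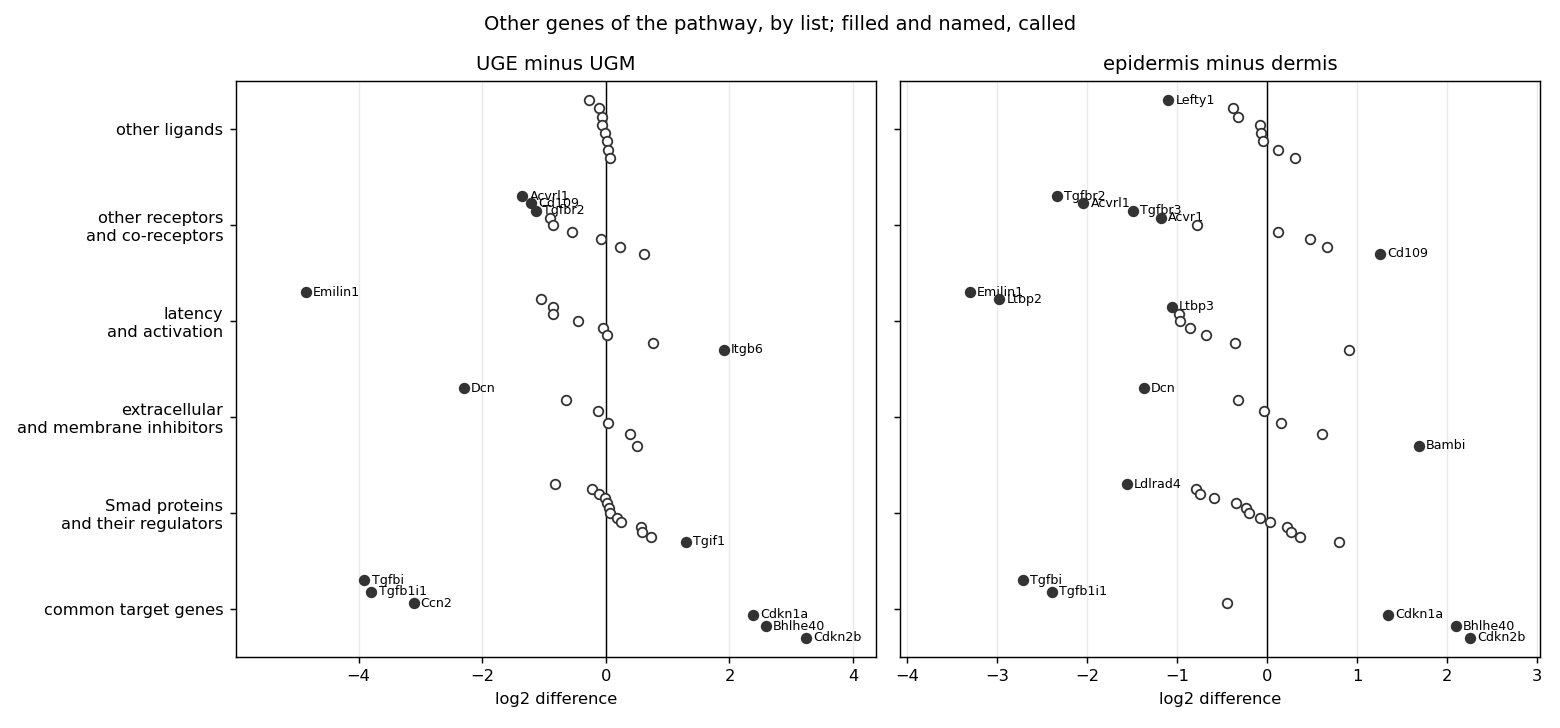
Log2 difference of epithelium minus mesenchyme (horizontal axis) for the other genes of the pathway in 6 lists, in the urogenital sinus on the left and in skin on the right, 1 point per gene, with called genes filled and named. The other ligands lie near 0 apart from Lefty1 in skin, and the target genes lie on both sides of 0.

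Cell type markers moved with several of the genes. All 10 endothelial markers were called lower in UGE than in UGM and all 10 lower in epidermis than in dermis. Eng was called lower in epidermis, while in UGE it lay just under 2-fold below UGM and was not called. Their summed intensity ranged over 6649 to 9690 for the dermis samples, 3893 to 5621 for UGM, 803 to 1280 for epidermis and 591 to 1184 for UGE. The lowest intensity in the data was 7.40 and not 0, so a low sum need not mean expression. Dermis came first and UGM next for Eng and for the list alike, and within UGE the samples with the higher endothelial medians, replicates 2 and 3, had the highest Eng values. The part of endothelial RNA in the Eng difference was not tested.

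UGM, where Tgfb2, Tgfb3 and Inhba were highest, also carried nerve and muscle transcripts. All 6 neuronal markers were higher in UGM than in UGE and than in dermis, and their summed intensity was 23777 to 29289 in UGM, against 275 to 342 in dermis, 238 to 681 in UGE and 231 to 287 in epidermis. All 6 smooth muscle markers were higher in UGM than in UGE and 4 of 6 higher than in dermis, with summed intensities of 18279 to 21234 for UGM, 4600 to 6543 for dermis, 393 to 1885 for UGE and 596 to 1287 for epidermis. A low sum need not mean expression for these lists either. Dermis had the next highest Tgfb3 and Inhba values. For Tgfb2 the next highest mean was that of UGE, at 9.10 against 8.95 in dermis, and these 2 tissues overlapped. The part of neurons and smooth muscle in the UGM ligand signal was not tested.

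Macrophages, which also make TGF-beta, were measured by 6 markers. All 6 were lower in epidermis than in dermis and 4 of 6 lower in UGE than in UGM, and 3 of 6 were lower in UGM than in dermis. Their summed intensity was 5798 to 6602 in dermis, where Tgfb1 was highest, 2594 to 3964 in UGM, 704 to 1791 in UGE and 727 to 1787 in epidermis. The part of macrophages in the Tgfb1 signal was not tested.

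Inha is best known in the gonads, which lie near the urogenital sinus, so gonadal and steroidogenic markers were measured. None of 7 was called between UGE and UGM. Their summed intensity was 305 to 421 in UGE, where Inha was highest, and 319 to 353 in UGM, below the 691 to 953 of dermis, where Inha was lowest. In UGE the Sertoli cell hormone gene Amh had a mean log2 intensity of 6.56 ± 0.20 (SD, n = 6) and 6.51 ± 0.17 (n = 5) in UGM, and 6.83 ± 0.15 in epidermis and 6.69 ± 0.07 in dermis (n = 4 each). Steroid enzyme genes had their highest values in skin, Cyp11a1 at 8.90 ± 0.31 in dermis against 5.10 ± 0.39 in UGE, and Cyp17a1 at 8.35 ± 0.40 in epidermis against 5.51 ± 0.26 in UGE. The part of gonadal RNA in the Inha signal was not tested.

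**Figure D5:**
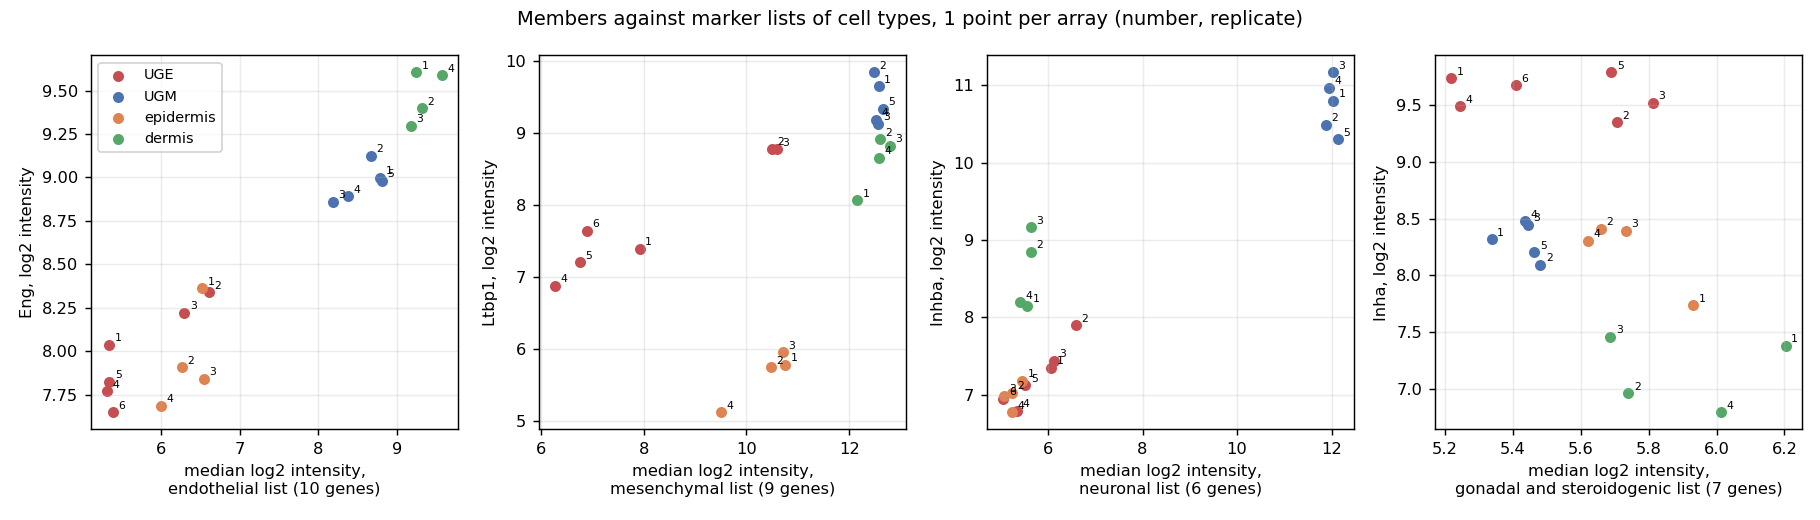
Log2 intensity of 1 gene (vertical axis) against the median log2 intensity of a marker list (horizontal axis), 1 point per array, with the replicate number beside it, for Eng and endothelial, Ltbp1 and mesenchymal, Inhba and neuronal, and Inha and gonadal markers. UGE replicates 2 and 3 lie apart from the other UGE arrays in the endothelial and mesenchymal panels. Dermis lies above both epithelia in Inhba, at neuronal medians of 5.41 to 5.64, and the gonadal medians span only about 1 log2 unit.

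Over the 19 arrays some of the 10 genes had alike patterns. Tgfb3 and Inhba correlated at 0.941, Inha and Acvr2b at 0.942, and Tgfb2 and Inhba at 0.897. The highest positive correlation of Acvr1b with any of the others was 0.364, with Inha, and that of Fst was 0.662, with Tgfb1. Opposite patterns were seen for Acvr2b and Fst (-0.935), Tgfb3 and Acvr1b (-0.917) and Inhba and Acvr1b (-0.909). The arrays fall into 4 tissues, so these values mostly describe tissue means. By the same measure over all genes, Tgfb3 was most like Tro and Adam19 and Inhba most like Tmod2 and Cadps. Tgfb2 was most like Col25a1, a collagen of neurons, and Gpr85. Inha lay nearest to the axon guidance gene Sema4g and the simple epithelial keratin Krt18, Acvr2b to Dhrs3 and Bmf, and Acvr1b to Mab21l3 and Dgka. The nearest genes were Sostdc1 and Cd44 for Fst, Arap3 and Esyt1 for Eng, Podxl and Bicc1 for Ltbp1, and Foxd1 and Clec4a3 for Tgfb1. All 20 of these correlations lay between 0.969 and 0.989.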

How the data were processed

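RNA from 19 pooled samples of E16 mouse tissue was read on MOE430 2.0 arrays. The deposited table holds linear intensity per probe set, which the authors had normalized between arrays. The submitters' processing notes name GCOS 1.4, while the study's methods took expression levels from PLIER and present or absent calls from MAS5. The software that made the table is not given in the sources used, and the present or absent calls were not used here. Groups and replicate numbers came from the sample titles.

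The array has 45101 probe sets, 64 of them controls, which were not tested. Another 41549, each over an intensity of 20 on at least 1 array, were tested on log2 values computed from the deposited intensity. The moderated 2-sided test of limma (version 3.58.1, under R 4.3.3) was used, by way of lmFit and eBayes. Comparisons within a site used the samples of that site, and comparisons between sites and the interaction used 1 fit of all 4 groups. Of the probe sets, 34945 have 1 gene symbol in the platform annotation, 932 have several and 9160 have none. Where several probe sets of a gene were tested, the brightest on average was read. The 10 genes, the lists and the naming rule were chosen with earlier results of these data known. Named are the 10 genes, up to 3 called genes of a list per comparison within a site plus those going the other way, the 2 genes most correlated with each of the 10, and marker genes. Mstn, Gdf1, Lrrc32 and Fbn1 were not analysed here, and Tdgf1 was not over the signal minimum.

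Skin samples with the same replicate number deviated from their group means together (correlations of 0.343, 0.108, 0.264 and 0.168), so the numbers may pair them. The number came from the titles. Epidermis replicate 2, however, correlated more with a dermis sample of another number, at 0.299. For UGE and UGM samples with the same number the correlations had both signs (0.648, 0.006, -0.122, 0.138 and -0.406). UGE replicate 1 correlated most with UGM replicate 1. The code was tested on simulated data. The number of arrays limits the precision of every value. The alternatives tried were quantile normalization, the methods' t-test, an offset of 50 before log2, other filters (none, or on the median), an adjusted p under 0.05, a single fit of all groups, a block for the replicate number, averaging a gene's probe sets, and leaving out samples. Lists refitted without UGE replicates 2 and 3 were added after seeing the data. Promoter windows came from RefSeq (GRCm38.p6), 8 of the 10 genes having one.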

Additional observations from a re-analysis of the deposited data

Results flagged for a closer look

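Dixon's test was applied to the arrays of each tissue for each gene, in 40 groups, of which chance flags about 1 in 20. It found 2 outlying samples. Tgfb1 in dermis replicate 4 was 7.23 on the log2 scale, while the other dermis samples lay between 7.50 and 7.52. Inha in epidermis replicate 1 was 7.74, while the other epidermis samples lay between 8.30 and 8.41.

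The difference between compartments differed between the urogenital sinus and skin, by limma's interaction, for 3 of the 10 genes. Of all genes, 12.9% were called. The Tgfb1 call was lost under 3 of the alternatives tried and the Inhba call under 1. The interaction was 1.10 for Tgfb1, -1.89 for Inhba and -1.62 for Fst on the log2 scale. Site and separation method cannot be told apart in these values. Of the 12 epithelial markers 11 were also called with a positive interaction. The part of RNA from the other layer in these values was not tested.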

How the results depend on the processing

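Of 50 values of the 10 genes in 5 comparisons, 31 were called. Of these, 16 kept their call and direction under every alternative tried, and of the 19 others 16 were called under none. No called value turned its sign, and 16 of 1296 alternative values, none of them called, did. With the mean over a gene's probe sets, 7 of the 10 genes were called between UGE and UGM (1 higher and 6 lower, in place of 3 and 5), where Acvr1b at 0.86 and Acvr2b at 0.52 were no longer called. Under it 4 of the 10 genes were called between epidermis and dermis (1 higher and 3 lower) and 2 between UGE and epidermis (1 higher and 1 lower). Of all genes, 2506 were then called between UGE and UGM, 2430 between the skin layers and 2018 between the epithelia. The main fit called 2913, 2941 and 2501. This mean includes every dimmer probe set, also that of Acvr2b at 6.27 to 7.31. With this mean the interaction was called for 3 of the 10 genes, all negative, without Tgfb1 and Inhba, and for 1987 of all genes. With 50 added before log2, the Tgfb1 interaction was not called, and 4 of the 10 were called between UGM and dermis (3 higher and 1 lower). Of all genes, 1741 were called there in place of 2392. With a filter on the median, which tested 22546 probe sets, the interaction was called for 1498 genes (998 positive and 500 negative) in place of 2248. Of the 10 genes 2 were called there (0 positive and 2 negative). The Tgfb1 signal did not pass this filter, so its interaction was not tested under it. Leaving out 1 replicate at a time, the interaction was called for 2 to 5 of the 10 genes, the most without UGE replicate 2 or 3, where Tgfb2 and Tgfb3 joined. Among all genes the interaction was called for 2273 without UGE replicate 2 and 2284 without UGE replicate 3. It was called for 5 (1 positive and 4 negative) also without both of these, and with UGE replicates 4 to 6 only. With the replicate number as a block, 1 call of the 50 changed, that of Acvr2b between UGM and dermis, at 0.98. Whether the numbers pair samples at either site is not known. The methods' t-test called 6 of the 10 genes between epidermis and dermis, without Inha and Tgfb2, and 2235 of all genes in place of 2941 there.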
